A study of Mus musculus with 32 samples.

Results

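Bile acid synthesis was followed here through 10 genes of the liver: Cyp7a1, Cyp8b1, Cyp27a1, Hsd3b7, Akr1d1, Slc27a5, Baat, Acox2, Amacr and Nr0b2. They were chosen by name among the 55421 genes of the deposited count table, and all 10 were found and passed the filter on low counts in the fits of input, of IP and of both together. The data came from livers of 16 mice in 4 groups of 4 animals: sham-operated Flox control mice (sham flox), sham-operated Mettl14 KO mice (sham KO), hepatectomised Flox control mice (hepatectomy flox) and hepatectomised Mettl14 KO mice (hepatectomy KO). Mettl14 is a subunit of the methyltransferase that writes m6A, a methylated adenosine, into mRNA. The labels give neither the Cre driver nor the time after surgery, and the animals were 71 to 77 days old. Each liver gave an input library, which is ordinary bulk RNA sequencing, and an IP library, made from RNA fragments of around 100 nucleotides pulled down with an antibody against m6A. Input and IP libraries were made with different kits, so a ratio of IP to input cannot be assigned to the antibody alone.

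Hepatocytes make bile acids from cholesterol by shortening the side chain and modifying the sterol rings, and then joining the product to taurine or glycine. The classic route starts with Cyp7a1, the rate-limiting hydroxylase in the endoplasmic reticulum, and Cyp8b1 sets how much of the product becomes cholic acid. A second route starts in mitochondria with Cyp27a1, and Nr0b2 (SHP) is the bile acid-induced nuclear protein that represses the pathway. After partial hepatectomy the remaining liver meets a larger bile acid load per cell, and the pathway is known to be repressed during regeneration.

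Depth, as the total count of a library, ran from 8177746 to 12533871 for input and from 7133726 to 24297713 for IP. Input libraries held 4176 to 9354 genes with at least 10 counts and IP libraries 6676 to 16846, the lowest of which was replicate 4 of hepatectomy KO, also the IP library with the smallest total. Mettl14 itself had 0 counts in all 16 input libraries, and 0 to 124 counts in IP libraries, with a mean of 0.769 CPM (the count scaled to a library total of 1000000, SD 1.54, n = 4) in hepatectomy KO and 1.03 CPM (SD 0.959, n = 4) in hepatectomy flox. The loss of Mettl14 RNA could therefore not be checked in these counts, and why the control inputs are at 0 was not tested. A count of 3, taken as the floor, is 0.239 to 0.367 CPM in input. All 9 hepatocyte markers had counts in every group, and they summed to 68096 to 83799 CPM across the 4 hepatectomy KO inputs. Krt19, a defining bile duct marker, was at 0 in all 16 inputs, but others of the 6 bile duct markers had counts. In input, Epcam was also at 0 in sham flox, Cftr in sham KO, and both in hepatectomy KO. Krt7, Epcam and Cftr were at 0 in hepatectomy flox inputs, so the sum there is of Sox9 and Spp1 alone. The 6 bile duct markers summed to 64.8 to 144 CPM in sham flox inputs and 0 to 129 CPM in hepatectomy flox inputs. The sums were 51.0 to 244 CPM in sham KO inputs and 47.1 to 350 CPM in hepatectomy KO inputs.

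Cyp8b1 differed most among the 10 genes. Its RNA was recovered from the m6A IP of all 12 livers of the other groups, and was at or near 0 counts in the IP of the 4 hepatectomy KO livers, although the same livers held Cyp8b1 RNA in their inputs. Cyp8b1 (ENSMUSG00000050445) lies on the minus strand of chromosome 9, from 121914356 to 121916305 in the deposited table. The genome build of that table is not given in the sources used here, and the spans of the 10 genes overlapped those of RefSeq on GRCm38.p6 by 85.98 to 100%. The gene is annotated with 1 exon block of 1950 bases and so has no intron in this annotation, which holds for 6.37% of named protein-coding genes. The other 9 genes have 2 to 17 exon blocks.

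The start-site windows of Cyp8b1 and Cyp27a1 are shown because both genes were lower in the hepatectomy KO IP, and because the nuclear receptor Hnf4a, a known activator of Cyp8b1, was measured beside them. Each runs from 250 bases before to 50 bases after the annotated start, 5′ to 3′ on the gene's strand, in RefSeq's GRCm38.p6. The Cyp8b1 window is chr9:121916256-121916555 on the minus strand and the Cyp27a1 window chr1:74713285-74713584 on the plus strand. Capitals mark the letters CAAAGTCCA, a core of the HNF4A motif, searched on both strands.
Cyp8b1: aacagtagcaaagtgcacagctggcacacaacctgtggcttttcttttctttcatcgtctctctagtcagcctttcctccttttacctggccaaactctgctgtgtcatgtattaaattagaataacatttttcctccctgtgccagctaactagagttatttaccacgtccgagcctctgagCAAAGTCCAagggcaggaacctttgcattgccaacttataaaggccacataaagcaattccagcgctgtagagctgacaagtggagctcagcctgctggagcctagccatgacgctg
Cyp27a1: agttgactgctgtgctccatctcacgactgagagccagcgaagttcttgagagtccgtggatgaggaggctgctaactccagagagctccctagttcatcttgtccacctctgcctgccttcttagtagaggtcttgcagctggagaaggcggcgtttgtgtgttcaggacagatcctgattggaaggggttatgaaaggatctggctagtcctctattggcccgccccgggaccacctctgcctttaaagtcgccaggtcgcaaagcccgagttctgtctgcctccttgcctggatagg
The match starts at base 184 of the Cyp8b1 window. The same letters occur in 156 of 32851 RefSeq windows of this length (0.475%), and in no other window of the 10 genes among those in the table (Cyp27a1, Hsd3b7, Akr1d1, Acox2 and Nr0b2). The letters AGGTCA (in 16.3% of RefSeq windows) and CAAGGTCA (1.56%) were searched as well. Neither occurs in the Cyp8b1 or the Cyp27a1 window, while the Akr1d1 window has 2 matches to AGGTCA. A match describes letters in a window and is no evidence of binding.

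**Figure D1:**
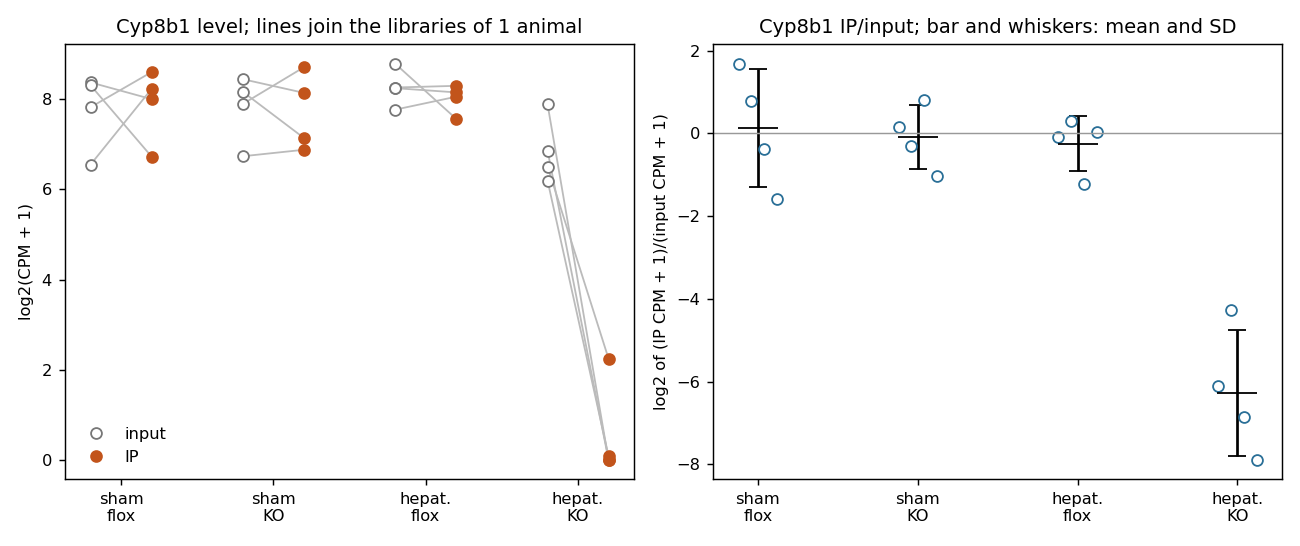
Cyp8b1 in the 16 livers by group. The left panel shows the level as log2(CPM + 1) in input (open points) and IP (filled points), with a line joining the libraries of each animal; the right panel shows log2 IP/input per animal with the mean and SD (n = 4). All 4 hepatectomy KO livers fall steeply from input to IP, with a mean log2 IP/input of -6.28 against means between -0.25 and 0.13 in the other groups.

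In IP libraries of hepatectomy KO, Cyp8b1 had 1, 73, 0 and 0 counts (replicates 1 to 4), or 0.95 ± 1.86 CPM (SD, n = 4). The hepatectomy flox IP libraries held 284, 266, 189 and 314 CPM, from 3344 to 4573 counts. Every knockout library lay far below every control library, and replicate 2 held 73 of the group's counts, which left the others at or under the floor of 3 counts. The ratio of the mean CPM was 277-fold. In sham-operated livers the IP level was 300, 389, 256 and 105 CPM in flox and 117, 282, 419 and 140 CPM in KO. These sham groups overlapped, and the fitted difference between them was -0.21 (log2, SE 0.75, edgeR quasi-likelihood adjusted p = 1).

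The inputs of the same livers did not separate in this way. Cyp8b1 input was 72.2, 90.0, 115 and 236 CPM in hepatectomy KO and 303, 218, 442 and 306 CPM in hepatectomy flox. The ranges overlapped through replicate 4 of the knockout, the means differed 2.47-fold, and the fitted change of -1.09 (log2, SE 0.84) did not pass the test (adjusted p = 0.871). Sham flox inputs were at 92.9, 226, 331 and 317 CPM and sham KO inputs at 106, 348, 238 and 286 CPM. Neither sham group stood apart from the other.

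Tested across all genes in the 16 IP libraries, Cyp8b1 fell by 8.31 on the log2 scale in KO against flox after hepatectomy (SE 1.05, adjusted p = 6.89e-05). Against sham KO, which shares the hepatectomy KO libraries, it fell by 8.04 (SE 1.04, adjusted p = 0.00014). Hepatectomy itself left it at 0.07 (SE 0.75, adjusted p = 1) in flox livers. The test of the difference between these surgery effects, the interaction of genotype and surgery, gave -8.11 (SE 1.22, adjusted p = 0.00216), and Cyp8b1 was the only 1 of the 10 genes to pass it, where 0.0285% of all 14020 genes tested passed. DESeq2 also called it alone of the 10, beside 1.29% of all genes. Without replicate 2 of hepatectomy KO, the library with 73 counts, the fitted change against hepatectomy flox was -13.22 (adjusted p = 1.69e-09), a value that depends on the small count added in the fit.

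The IP/input ratio of the 4 animals, as log2 of (IP CPM + 1)/(input CPM + 1), was -6.11, -4.26, -6.86 and -7.89 in hepatectomy KO. In the other 12 animals it lay between -1.58 and 1.68, so no other animal came near. Fitted over all 32 libraries, Cyp8b1 was lower in IP than in input only in hepatectomy KO among the 4 groups (-7.34, SE 1.14, adjusted p = 2.56e-05). Its fitted IP/input ratio was 0.39 (SE 0.86) in sham flox, 0.11 (SE 0.86) in hepatectomy flox and -0.15 (SE 0.86) in sham KO. The change in IP/input was -7.45 (SE 1.36, adjusted p = 0.000853) for KO against flox after hepatectomy and -7.19 (SE 1.35, adjusted p = 0.0107) for hepatectomy against sham in KO. With upper-quartile factors the last of these missed the threshold (-6.32, adjusted p = 0.106). The interaction in IP/input was -6.91 (SE 1.77, adjusted p = 0.0632) and did not pass. Of 8 other settings and 16 fits without single animals, 20 likewise had none of the 10 genes past the threshold. Among the few in which it passed were the fit with each animal as a block (-9.87, adjusted p = 0.00443) and that without replicate 2 of hepatectomy KO (-11.83, adjusted p = 3.47e-05). Where IP counts are this close to 0, the fitted size varies with the model more than its sign does.

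**Figure D2:**
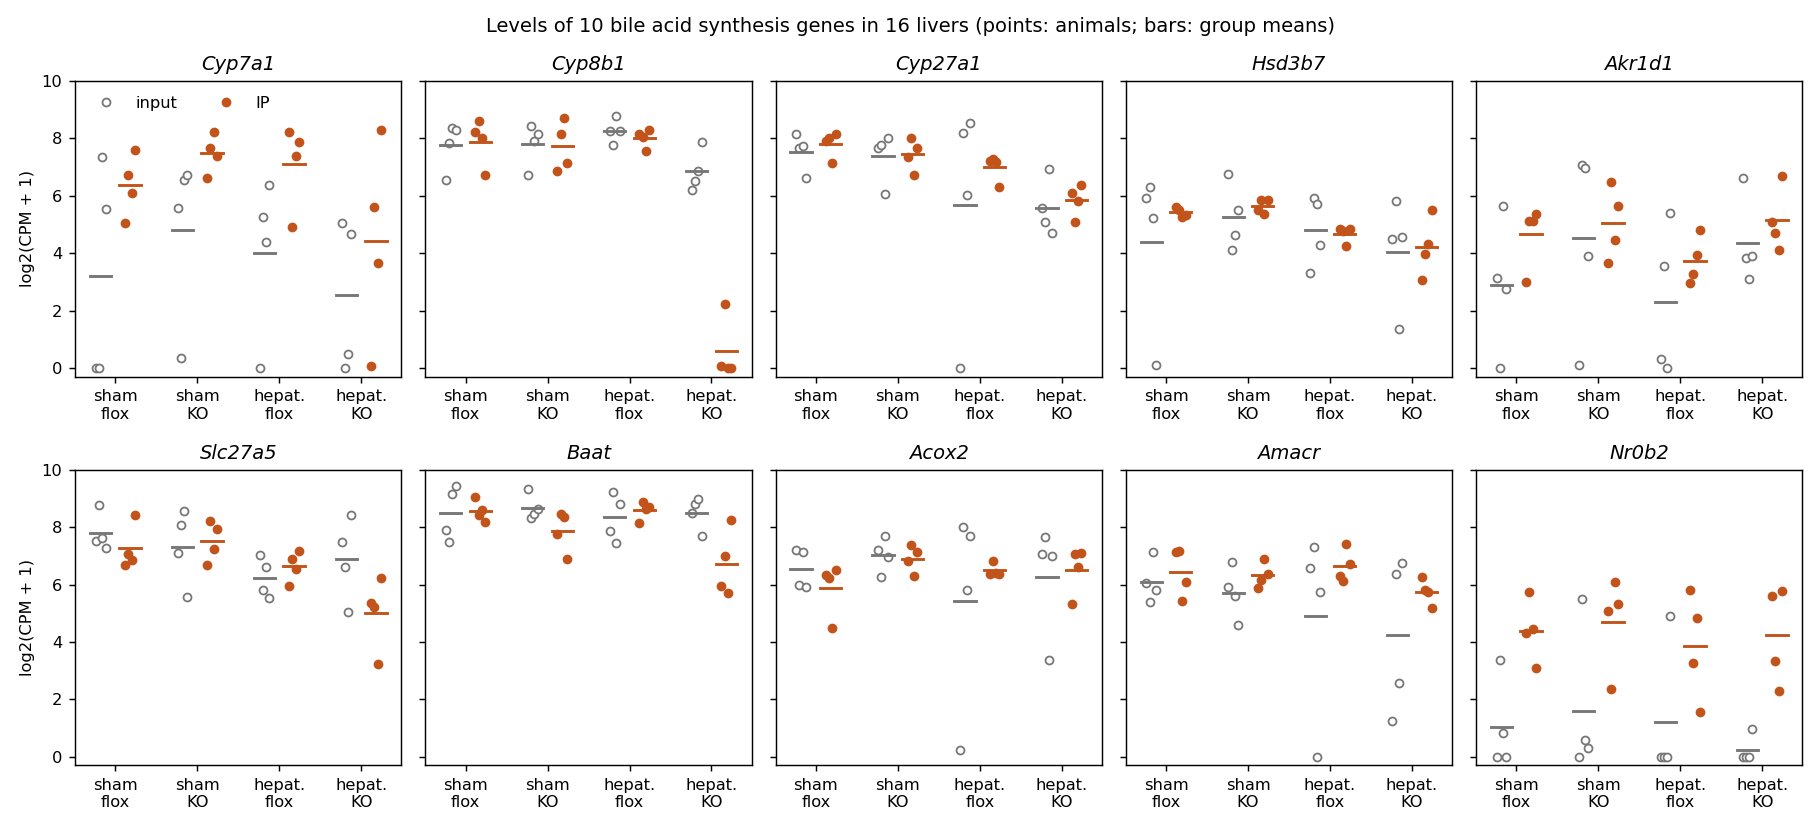
Levels of the 10 genes as log2(CPM + 1) in input (open points) and IP (filled points) of the 16 livers, by surgery and genotype; bars are group means of the log values, n = 4. Cyp8b1 IP in hepatectomy KO lies at 0 to 3.74 CPM, while several inputs, such as those of Nr0b2, are at 0 in one liver and well above it in another.

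Cyp7a1, which starts the classic route (ENSMUSG00000028240, chromosome 4, 6265612 to 6275633, 6 exon blocks), varied widely between the animals of a group. Its IP level in hepatectomy KO was 0.0582, 48.3, 11.7 and 315 CPM, that is 1 count in replicate 1 and 2247 in replicate 4. Hepatectomy flox IP libraries had 299, 29.5, 166 and 236 CPM. The groups overlapped, and the fitted change of -1.25 (SE 0.97) did not pass the test (adjusted p = 0.723). Without replicate 4 of hepatectomy KO, the IP library with the smallest total, it was -3.50 (adjusted p = 0.0431), so the call depended on this library. Sham IP libraries were at 32.3, 105, 67.8 and 193 CPM in flox and 97.1, 204, 299 and 169 CPM in KO. Input levels of Cyp7a1 ran from 0 to 161 CPM over the 16 livers, with 0 in 4 of them and 5 at or under 3 counts. Both of the early hydroxylases thus reached 1 count in the IP of hepatectomy KO replicate 1, but in replicates 2 to 4 Cyp7a1 RNA was present where Cyp8b1 RNA was at 73, 0 and 0 counts.

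Cyp27a1, the mitochondrial hydroxylase of the side chain (ENSMUSG00000026170, chromosome 1, 74713574 to 74737892, 7 exon blocks), was lower in the hepatectomy KO IP than in the sham KO IP. The levels were 68.2, 32.9, 55.9 and 82.7 CPM against 162, 258, 105 and 202 CPM, with no overlap. The change was -1.71 (SE 0.41, adjusted p = 0.0472). Hepatectomy flox IP libraries had 146, 155, 144 and 78.2 CPM, and against them the change of -1.39 (SE 0.41) missed the threshold (adjusted p = 0.0879). In input the same direction was seen, at 57.0 ± 44.6 CPM (SD, n = 4) in hepatectomy KO against 185 ± 82.9 CPM in sham KO, with a fitted -1.64 (SE 1.19, adjusted p = 1) and overlapping ranges. Its IP/input change for that comparison was -0.12 (SE 1.35), unlike that of Cyp8b1, although the difference between the genes was not tested. The IP call was lost in 10 of 17 other settings, with adjusted p from 0.0073 to 0.29, among them leaving out sham KO replicate 2 (-1.37, adjusted p = 0.29).

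Hsd3b7 and Akr1d1 change the sterol rings. Hsd3b7 (ENSMUSG00000042289, chromosome 7, 127800604 to 127803802) shares 62.0% of its exon bases with a longer, unnamed gene on the same strand, with equal counts in 7 of 16 inputs, so its level is uncertain. Its IP level was 42.2 ± 4.94 CPM in sham flox, 25.1 ± 4.76 in hepatectomy flox, 49.8 ± 8.44 in sham KO and 21.2 ± 15.9 in hepatectomy KO (SD, n = 4 each). The hepatectomy flox and sham flox values did not overlap, at 18.1 to 28.1 against 37.4 to 48.1 CPM, but the fitted -0.68 (SE 0.64) did not pass the test (adjusted p = 1), where 0.0285% of all genes did. In hepatectomy KO it was -1.33 (SE 0.65, adjusted p = 0.534) against sham KO. Akr1d1, the ring reductase (ENSMUSG00000038641, chromosome 6, 37530173 to 37568815, 10 exon blocks), was the member with the highest fitted change in IP in KO after hepatectomy, at 1.39 (SE 0.82, adjusted p = 0.54). Its values were 33.4, 25.0, 16.3 and 103 CPM against 6.81, 8.80, 14.2 and 26.8 CPM in hepatectomy flox, and the ranges overlapped. Neither ring enzyme passed any of the tests.

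Acox2, an acyl-coenzyme A oxidase, and Amacr, a racemase, are peroxisomal enzymes that prepare the side chain for its shortening. Acox2 (ENSMUSG00000021751, chromosome 14, 8225511 to 8259353, 17 exon blocks) had IP means of 66.3 ± 30.8 CPM in sham flox, 90.2 ± 14.4 in hepatectomy flox, 123 ± 36.6 in sham KO and 101 ± 45.0 in hepatectomy KO (SD, n = 4 each). Its input ranged from 0.165 CPM, or 2 counts, to 257 CPM within hepatectomy flox alone. The IP levels overlapped in every comparison, and the change in KO against flox after hepatectomy was -0.13 (SE 0.46, adjusted p = 0.976), the smallest in size among the members after Nr0b2. Amacr (ENSMUSG00000022244, chromosome 15, 10981756 to 10996626, 5 exon blocks) had IP levels of 75.9, 54.7, 51.9 and 35.2 CPM in hepatectomy KO and 77.7, 68.1, 169 and 103 CPM in hepatectomy flox. The change of -1.19 (SE 0.47) did not pass (adjusted p = 0.234).

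Slc27a5 and Baat join the finished bile acid to coenzyme A and then to the amino acid. Slc27a5 (ENSMUSG00000030382, chromosome 7, 12988346 to 12998192, minus strand, 10 exon blocks) had IP levels of 40.0, 36.3, 8.36 and 73.7 CPM in hepatectomy KO and 103, 295, 152 and 241 CPM in sham KO. No value overlapped, and the change was -2.44 (SE 0.55, adjusted p = 0.0331). It missed the threshold in 7 of 17 other settings, with adjusted p up to 0.18, the highest of them without sham KO replicate 2 (-2.05). Against hepatectomy flox, at 60.4, 119, 91.2 and 143 CPM, it was -1.66 (SE 0.53, adjusted p = 0.14). Input levels were 176, 97.9, 32.3 and 344 CPM in hepatectomy KO against 128, 54.7, 97.7 and 44.8 CPM in hepatectomy flox, a fitted change of 1.20 (SE 1.0, adjusted p = 0.952).

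The per-animal log2 IP/input of Slc27a5 in hepatectomy KO was -2.12, -1.40, -1.83 and -2.21. Hepatectomy flox animals had -1.08, 1.10, -0.10 and 1.65, and sham KO animals -0.41, 0.15, -1.29 and 2.36. Neither group overlapped hepatectomy KO, while 1 sham flox animal, at -1.68, did. The fitted change in IP/input was -2.97 (SE 1.22, adjusted p = 0.134) against hepatectomy flox and -1.98 (SE 1.20, adjusted p = 0.562) against sham KO, so neither passed. Slc27a5 had the lowest mean in hepatectomy KO after Cyp8b1, at -1.89 ± 0.36 (SD, n = 4) against -6.28 ± 1.53.

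Baat (ENSMUSG00000039653, chromosome 4, 49489422 to 49506557, minus strand, 4 exon blocks) had IP levels of 60.6, 126, 51.2 and 300 CPM in hepatectomy KO and 285, 465, 399 and 415 CPM in hepatectomy flox. Replicate 4 of the knockout lay inside the control range and the other 3 far below it. Baat fell by 1.82 on the log2 scale (SE 0.47, adjusted p = 0.0479), and it passed in 6 of 17 other settings. Without replicate 4 of hepatectomy KO it fell by 2.58 (adjusted p = 0.000593), and without any other 1 of the 8 libraries the call was lost (adjusted p 0.0627 to 0.157). Input Baat was alike in both groups, at 380 ± 131 CPM and 365 ± 199 CPM (SD, n = 4), with a fitted 0.23 (SE 0.62, adjusted p = 1). The IP/input change was -2.16 (SE 0.85, adjusted p = 0.121).

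Nr0b2, the repressor (ENSMUSG00000037583, chromosome 4, 133553376 to 133556536, 2 exon blocks), was seen almost only in IP. Input had 0 counts in 9 of 16 livers and at most 44.0 CPM. IP levels were 47.3, 9.02, 3.94 and 53.7 CPM in hepatectomy KO, 55.7, 8.61, 27.4 and 1.93 CPM in hepatectomy flox, 18.7, 52.5, 20.6 and 7.57 CPM in sham flox and 33.1, 4.16, 66.5 and 38.6 CPM in sham KO. The 4 groups overlapped throughout. The change in KO against flox after hepatectomy was 0.01 (SE 0.99, adjusted p = 1), while its input values are too sparse for an IP/input ratio to be read.

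**Figure D3:**
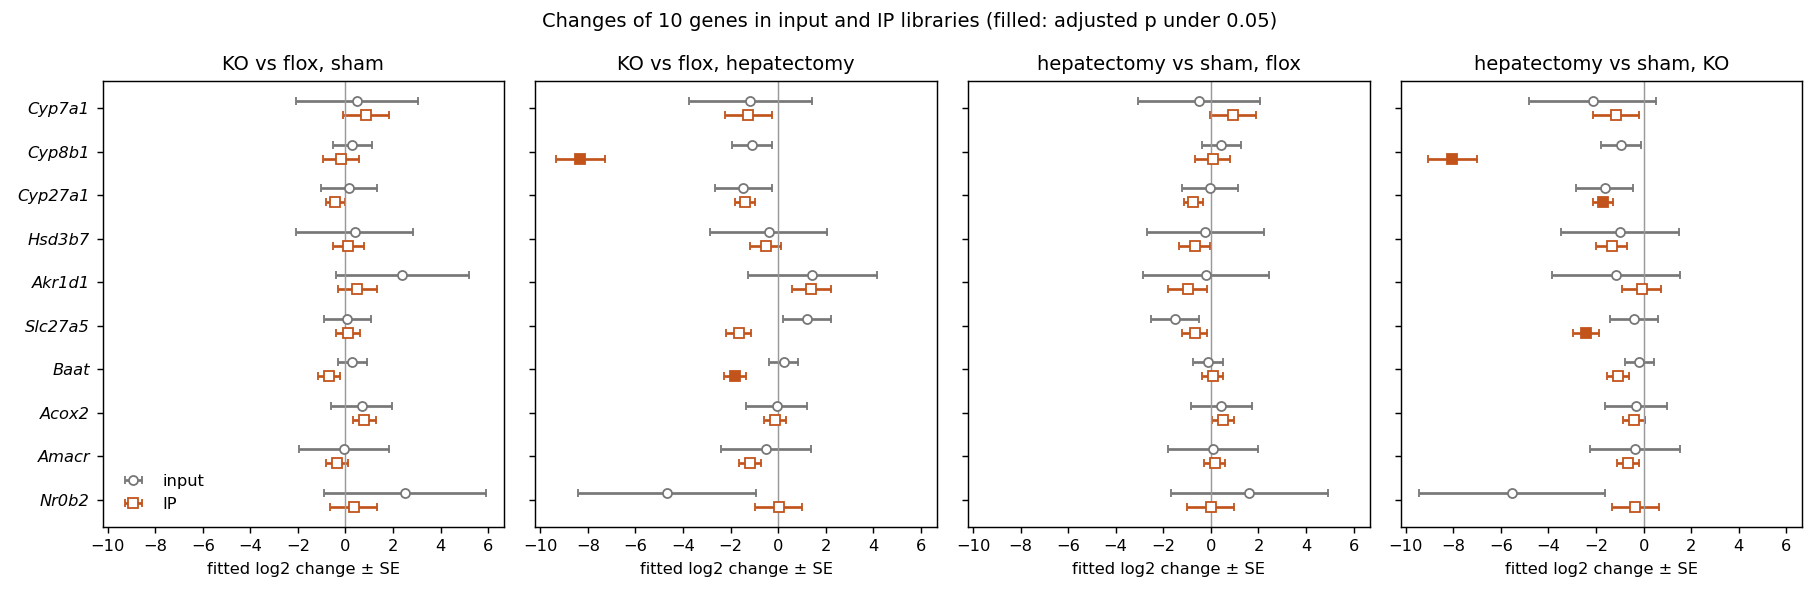
Fitted log2 changes of the 10 genes with their SE in input (circles) and IP (squares), for 4 comparisons of 4 against 4 libraries; filled symbols passed an adjusted p under 0.05. Cyp8b1 IP stands at -8.31 and -8.04 in the comparisons that hold hepatectomy KO, and all input intervals are wide.

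Counted together, 2 of the 10 genes, Cyp8b1 and Baat, fell in IP in KO against flox after hepatectomy and 0 rose. Of all 14020 genes tested, 162 (1.16%) fell and 48 rose. The median change of the 10 was -1.22, with 8 below 0, beside 0.01 for all genes. DESeq2 called 3 lower, adding Cyp27a1 (-1.25, adjusted p = 0.044), beside 3.24% of all genes. In hepatectomy against sham within KO livers, 3 of the 10, Cyp8b1, Cyp27a1 and Slc27a5, fell, beside 0.585% of all genes, with a median of -1.11 (all genes -0.10) and all 10 values below 0. DESeq2 called the same 3 genes, beside 2.41% of all genes. Both comparisons use the same 4 hepatectomy KO libraries and so are not independent. The split of all called genes in the first of them was 48 higher and 162 lower. It was 75 and 95 with library totals alone, which moved the median of all genes from 0.01 to 0.28, and 363 and 446 with DESeq2. In the second it was 7 and 82, or 83 and 331 with DESeq2.

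With either factor alone, none of the 10 genes passed. In IP, 0 of 10 passed edgeR's test for KO against flox in sham livers, where 0.0927% of all genes passed, and 0 of 10 for hepatectomy against sham in flox livers, where 0.0285% did. None of these 20 tests had an unadjusted p under 0.05, and DESeq2 called 0 in both, where it called 1.35% and 1.99% of all genes. Fitted IP changes in sham livers ran from -0.69 (Baat) to 0.86 (Cyp7a1). After hepatectomy in flox livers they ran from -0.98 (Akr1d1) to 0.94 (Cyp7a1). Repression of Cyp7a1 RNA after hepatectomy was not detected in flox livers, with a fitted IP value of 0.94 (SE 0.96) and an input value of -0.50 (SE 2.57).

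In input, 0 of 10 passed edgeR's test in any of the 5 comparisons, where 0.0114% of all genes passed for KO against flox in sham livers, 0.0342% after hepatectomy, 0% for hepatectomy against sham in flox, 0.0114% in KO and 0% for the interaction. None had an unadjusted p under 0.05. DESeq2 gave no adjusted p for Nr0b2 and called 0 of the other 9, where it called 8.11%, 13.1%, 16.8%, 1.84% and 15.4% of all genes in these comparisons. Input gave little precision for these genes. The coefficient of variation between animals of a group had a median of 77.6% over the 40 pairs of gene and group in input and 44.8% in IP, and was higher in input in 34 of the 40. Of 160 input values, 23 were at or under 3 counts, beside 4 of 160 IP values, and 3 genes (Cyp8b1, Slc27a5 and Baat) stayed above that floor in every input. In hepatectomy flox replicate 1, for example, Cyp7a1, Cyp27a1 and Nr0b2 were at 0 and Acox2 at 2 counts, while the same animal's IP held 299, 146, 55.7 and 82.6 CPM.

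**Figure D4:**
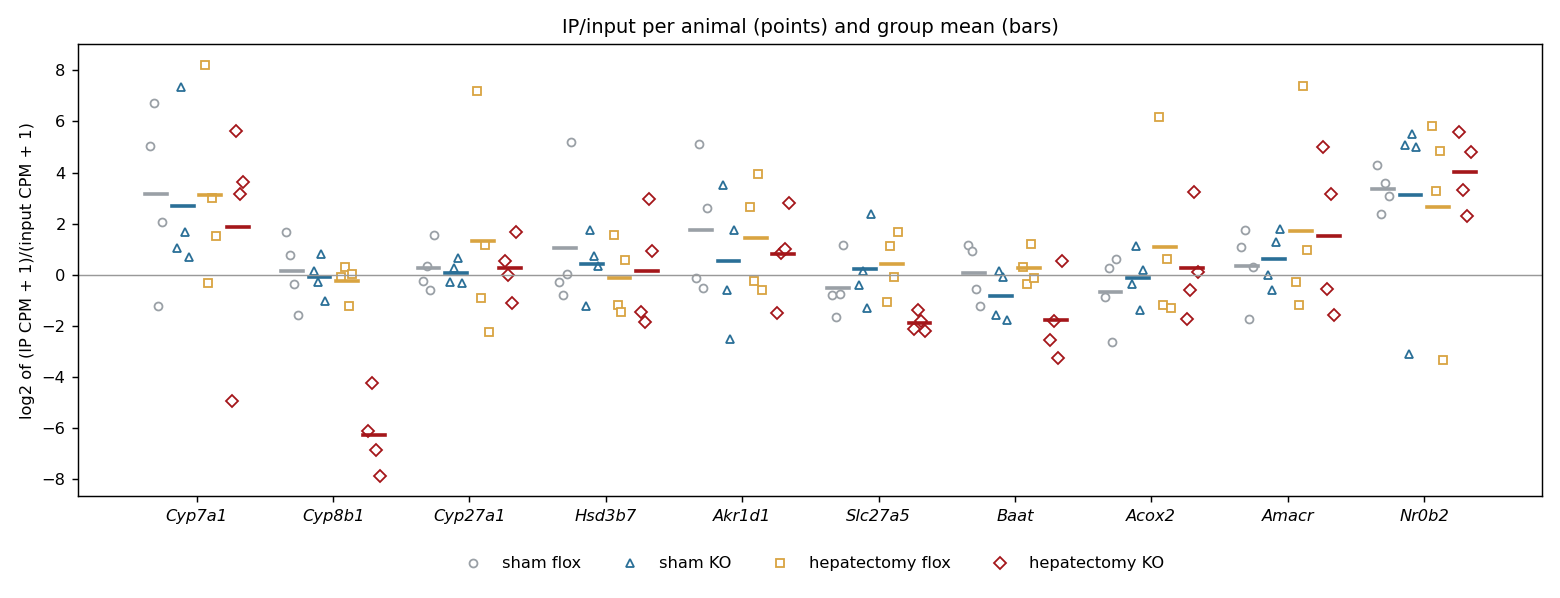
log2 of (IP CPM + 1)/(input CPM + 1) per animal for the 10 genes by group, with group means as bars. Hepatectomy KO animals lie below all others for Cyp8b1 (-4.26 to -7.89) and close together for Slc27a5 (-1.40 to -2.21), while Cyp7a1 scatters widely in each group (SD 3.13 to 4.67).

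For IP against input within a group, passing also required a fitted difference of at least 1 on the log2 scale. In hepatectomy KO 1 of the 10 genes, Cyp8b1, was lower in IP, beside 0.307% of all 14328 genes. DESeq2 called 3 of the 10, Cyp8b1, Slc27a5 (-1.96, adjusted p = 0.0458) and Nr0b2, which was higher in IP (7.01, adjusted p = 0.00646). It called far more genes in general, with 1.63% of all genes lower and 13% higher in IP. In sham flox, hepatectomy flox and sham KO 0 of 10 passed by either tool and 0 had an unadjusted p under 0.05, beside 0.258%, 1.21% and 0.0209% of all genes by edgeR and 25.3%, 29.5% and 14.9% by DESeq2. For the change in IP/input, 1 of 10 was lower in KO against flox after hepatectomy, beside 0.705% of all genes. Likewise 1 of 10 was lower in hepatectomy against sham within KO, beside 0.0349%. Both were Cyp8b1, which DESeq2 called too, beside 18.7% and 6.39% of all genes. The median change in IP/input of all genes was -0.99 in KO against flox after hepatectomy, and that of the 10 genes -0.19. The values of single genes in this comparison, such as Baat and Slc27a5, are to be read beside that shift of all genes. The interaction called 0 of 10, and 1 had an unadjusted p under 0.05, beside 0.0419% of all genes called. DESeq2 called Cyp8b1 lower, beside 13.5% of all genes. In sham livers and in flox livers the change in IP/input called 0 of 10, beside 0.0209% and 0.181% of all genes, with 0 of 10 at an unadjusted p under 0.05. DESeq2 called 0 of 10 there, beside 17.8% and 24%.

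Read per kilobase of exon, Baat had the highest mean level of the 10 genes in both assays of all 4 groups, for example 201 ± 39.1 CPM per kb (SD, n = 4) in hepatectomy flox IP. Cyp8b1 was the next in the IP of sham flox, hepatectomy flox and sham KO, at 135 ± 60.7, 135 ± 27.5 and 123 ± 71.8 CPM per kb. In the hepatectomy KO IP it was the last of the 10, at 0.487 ± 0.955 CPM per kb, while in the input of those livers it was the third at 65.8 ± 37.8. Akr1d1 was the lowest in the IP of the other 3 groups. Most neighbours in this order overlapped, but Cyp8b1 in hepatectomy flox IP, at 96.8 to 161 CPM per kb, lay above Cyp27a1, at 36.0 to 71.2.

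Other enzymes of the pathway were read from a separate list of 14 genes, of which 13 were found by name and 11 could be tested. In IP, 2 of the 11 fell in KO against flox after hepatectomy, beside 1.16% of all genes, and 0 rose, with a median of -0.78. Cyp7b1, the oxysterol hydroxylase of the alternative route, had 0, 0.615, 14.4 and 3.78 CPM in hepatectomy KO and 159, 45.9, 65.9 and 266 CPM in hepatectomy flox, with no overlap and a change of -5.11 (SE 1.05, adjusted p = 0.0094; 0.0681 in a fit of only these 8 libraries). Slc27a2, an acyl-coenzyme A synthetase that also acts on fatty acids, had 208, 329, 111 and 250 CPM against 719, 587, 968 and 1208 CPM, a change of -2.23 (SE 0.34, adjusted p = 0.000484). It was the only 1 of the 11 to fall in hepatectomy against sham in KO (-1.90, SE 0.34, adjusted p = 0.00483), beside 0.585% of all genes. Its IP/input ratio also fell in KO against flox after hepatectomy (-2.47, SE 0.55, adjusted p = 0.0176; with each animal as a block -2.52, adjusted p = 0.0821), a call held in 8 of 16 other settings and weakest with upper-quartile factors (-1.40, adjusted p = 0.21), while its input differed by 0.11 (SE 0.41, adjusted p = 1). In hepatectomy KO its IP was lower than its input (-1.81, SE 0.40, adjusted p = 0.0115, or 0.0559 with the block), which held in 5 of 12 other settings, with adjusted p up to 0.31 without hepatectomy KO replicate 3 (-1.41). In the IP of sham livers and of flox livers 0 of the 11 passed by edgeR or DESeq2 (1 and 2 with an unadjusted p under 0.05). Of all genes, 0.0927% and 0.0285% passed there by edgeR and 1.35% and 1.99% by DESeq2. Of the most abundant there, Slc27a2 stood at -0.48 (SE 0.33) for KO in sham and -0.15 (SE 0.32) for surgery in flox, and Scp2, a peroxisomal thiolase, at -0.25 (SE 0.33) and -0.88 (SE 0.33). In input 0 of the 11 passed by either tool in any comparison and 0 had an unadjusted p under 0.05, with Scp2 at -0.16 (SE 0.41) and Slc27a2 at 0.11 in KO against flox after hepatectomy.

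Regulators of the pathway were a list of 12 genes, all tested. In IP, 4 of the 12 fell in KO against flox after hepatectomy, beside 1.16% of all genes, and 0 rose, with a median of -1.23. They were the nuclear receptors Hnf4a (-1.29, SE 0.28, adjusted p = 0.0141), Rxra (-1.15, SE 0.29, adjusted p = 0.0404) and Ppara (-2.66, SE 0.43, adjusted p = 0.000927), and the circadian factor Dbp (-3.51, SE 0.73, adjusted p = 0.00956). Hnf4a IP levels were 314 to 671 CPM in hepatectomy KO and 882 to 1247 CPM in hepatectomy flox, with no overlap. Ppara IP levels were 50.2, 64.6, 58.6 and 147 CPM against 412, 288, 587 and 399 CPM, also with no overlap. Ppara passed in all 17 other settings, Dbp in 16, Hnf4a in 14 and Rxra in 6 (highest adjusted p 0.164, with library totals alone). In hepatectomy against sham in KO, 3 of the 12 fell, beside 0.585% of all genes: Hnf4a (-1.28, adjusted p = 0.0291), Ppara (-1.96, adjusted p = 0.0266) and Dbp (-3.20, adjusted p = 0.0332). These calls held in 10, 12 and 10 of 17 other settings. In the IP of sham livers and of flox livers 0 of the 12 passed by edgeR (0.0927% and 0.0285% of all genes) or DESeq2 (1.35% and 1.99%), and 0 had an unadjusted p under 0.05. Hnf4a stood there at -0.09 (SE 0.28) and -0.08 (SE 0.28), and Rxra at -0.21 (SE 0.29) and -0.05 (SE 0.29). In input 0 of the 12 passed by either tool in any comparison (DESeq2 gave no adjusted p for Fgfr4), beside the shares of all genes given above for the 10 genes. An unadjusted p under 0.05 was seen for 1 gene in each of 2 comparisons (KO against flox after hepatectomy, and surgery in flox). Hnf4a input was at 0.71 (SE 0.40) in KO against flox after hepatectomy and Rxra at 0.37 (SE 0.46). The IP/input ratio of Hnf4a fell in that comparison (-2.13, SE 0.54, adjusted p = 0.0396), a call lost with each animal as a block (adjusted p = 0.107) and in 12 of 16 other settings in all. It was weakest with upper-quartile factors (-1.10, adjusted p = 0.392). The median of all genes was also below 0 in this comparison, as given above. Dbp was higher in IP than in input in hepatectomy flox (8.70, SE 2.38, adjusted p = 0.0475; adjusted p = 0.0575 with the block), which held in 5 of 11 other settings.

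Markers of hepatocytes and of other cells moved in the same IP libraries. The 9 hepatocyte markers, which include Hnf4a, summed to 45676, 45359, 24519 and 74509 CPM in the hepatectomy KO IP and to 71064 to 86846 CPM in hepatectomy flox and 56814 to 86493 CPM in sham KO. Of the 9, 8 were below 0 in KO against flox after hepatectomy, and Hnf4a and Apoa1 passed (Apoa1 -1.44, SE 0.30, adjusted p = 0.00956), where 1.16% of all genes fell. Against sham KO all 9 were below 0 and Hnf4a passed, where 0.585% of all genes fell. In input the sums were 68096 to 83799 CPM in hepatectomy KO and 77128 to 81941 CPM in hepatectomy flox, and these ranges overlapped. By edgeR 1 of the 9 passed in input for KO against flox after hepatectomy, beside 0.0342% of all genes. In sham livers 1 also passed, beside 0.0114%. For IP against input in hepatectomy KO 2 passed, beside 47 of all 14328 genes. For the IP/input change between genotypes after hepatectomy 3 passed, beside 102. DESeq2 called 0 of the 9 in these input and IP/input comparisons. In the IP of hepatectomy KO it called 3 of the 9 against hepatectomy flox, beside 809 of all 13758 genes. Against sham KO it also called 3, beside 414 of all genes. In bulk tissue, fewer cells of a type and less RNA per cell cannot be told apart, and what lies behind the lower IP sums was not tested.

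For other cells, the IP sums of hepatectomy KO and hepatectomy flox were 257 to 843 against 256 to 379 CPM for 6 Kupffer cell markers, 357 to 496 against 201 to 241 for 6 stellate cell markers, and 222 to 598 against 185 to 308 for 6 sinusoidal endothelial markers. They were 54.4 to 215 against 8.98 to 188 CPM for 6 bile duct markers, with Cftr at 0 in hepatectomy KO. The 6 other leukocyte markers summed to 12.8 to 357 against 0 to 43.2, with Cd3e at 0 in the former group and Cd79a, S100a9 and Nkg7 in the latter, and 5 erythroid markers to 26.7 to 57.2 against 31.7 to 164. The 7 proliferation genes, such as Mki67 and Top2a, summed to 423 to 1830 CPM against 266 to 464. Sham IP libraries had 15.8 to 88.0 in flox and 52.3 to 220 in KO. In input, hepatectomy KO and hepatectomy flox overlapped for each of these lists. The input sums were 106 to 512 against 23.4 to 449 CPM for Kupffer cell markers and 129 to 496 against 0.337 to 319 for stellate cell markers. They were 56.4 to 135 against 69.8 to 608 for endothelial markers and 47.1 to 350 against 0 to 129 for bile duct markers. Other leukocyte markers had 1.23 to 114 against 0 to 142 CPM in input, and erythroid markers 37.6 to 204 against 0 to 98.0. Proliferation genes had 166 to 483 against 206 to 462 CPM in input. Of the leukocyte markers, Cd79a, S100a8, S100a9 and Nkg7 were at 0 in all 16 inputs, and Cd3e in hepatectomy flox inputs. Also at 0 in hepatectomy flox inputs were Adgre1, Timd4 and Marco (Kupffer), and Colec11 and Pdgfrb (stellate). So were Hba-a1, Hba-a2 and Hbb-bs (erythroid), and Ccna2 and Pcna (proliferation). The input sums of that group thus rest on the remaining markers. Whether the marker and cell cycle differences in IP have a part in the falls of Cyp8b1, Baat, Cyp27a1 and Slc27a5, or in those of the other enzymes and regulators, was not tested.

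Genes most like Cyp8b1 over the 16 IP libraries, by Pearson's r of log2(CPM + 1) among 9239 genes with a mean of at least 5 CPM, were Ugt3a2 (r = 0.949), Npr2 (0.945) and Slc3a1 (0.934). Their mean IP levels in hepatectomy KO and in the other 12 libraries were 28.7 and 195 CPM, 0.278 and 21.5 CPM, and 5.12 and 124 CPM. Over the 16 inputs (8414 genes) the most alike were Xbp1 (0.796), Zhx1 (0.787) and Apob (0.759). For Cyp7a1 they were Asb8 (0.916), Pim3 (0.912) and Sun2 (0.892) in IP and Eng (0.762), Dnajc1 (0.756) and Atrnl1 (0.737) in input. These libraries share groups and depth, so the values only describe likeness, and the genes found in IP and in input were different for both.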

How the data were processed

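The authors deposited a table of estimated counts per gene, not normalized, for 32 libraries, 16 input and 16 IP, made from reads that were processed with fastp and STAR, per the submitters' processing notes. In it, 1.33 to 2.81% of a library's input values and 1.90 to 8.22% of its IP values were not whole. No source used here gives the counting tool or the genome build. Values were rounded to whole counts before testing.

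Symbols were assigned by position, where a gene and a RefSeq gene on GRCm38.p6 were each other's best overlap and shared at least 0.5 of their spans. This named 34382 genes, holding 93.4% of counts. CPM is the count scaled to a library total of 1000000.

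Input libraries, IP libraries and all 32 together were each fitted with edgeR 4.0.16 (quasi-likelihood test, TMM factors, filterByExpr with a minimum count of 10) in R 4.3.3, with Benjamini-Hochberg adjustment over all genes and a threshold of 0.05. Every adjusted p is from these fits unless DESeq2 (1.42.0) is named. The procedure was run on simulated data at a low and at the measured spread. A condition for passing was set only for edgeR at the low spread, and recovery at the measured spread is not given here. Alternatives were other normalisation factors, filters, DESeq2, blocks, the exclusion of each animal in turn or of the 2 sham flox animals aged 77 days, pseudocounts of 0.25 and 5 CPM in place of 1, and a newer quasi-likelihood method added after the data were seen. Tables and plots used Python 3.11.15, pandas 2.3.3, numpy 2.4.6 and matplotlib 3.10.9.

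The labels tie each input to the IP of the same animal. Over 187 abundant genes, the deviations of such pairs from their group means correlated at -0.242 to 0.333 (median 0.0607). Of the 16 inputs, 9 correlated best with the IP of their own animal among the IP libraries of their group. The samples are labelled as separate animals. The 10 genes and the lists were chosen with earlier results of these data known. The 10 genes are all named, as are the listed genes that passed, or otherwise the 2 most abundant, and the 3 genes most like Cyp7a1 and Cyp8b1.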

Additional observations from a re-analysis of the deposited data

Results flagged for a closer look

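Of 120 groups of 4 values of the 10 genes, 13 had an animal far from the other 3 by Dixon's criterion. For independent groups of normally spread values, chance gives about 1 in 20, or 6 groups. These groups are not independent, because the IP/input values reuse the input and IP levels. Nr0b2 input in hepatectomy flox and in hepatectomy KO had 3 values at 0 and so met the criterion by construction. The counts of 13 and 6 therefore do not measure an excess over chance. Among IP levels, these animals were hepatectomy KO replicate 2 for Cyp8b1 (3.74 CPM, against a group median of 0.0291), hepatectomy flox replicate 4 for Cyp27a1 (78.2 CPM), hepatectomy flox replicate 3 for Hsd3b7 (18.1 CPM) and sham flox replicate 1 for Akr1d1 (7.08 CPM). Acox2 IP stood apart in sham flox replicate 3 (21.2 CPM, low) and in hepatectomy flox replicate 2 (112 CPM, high).

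Among input levels, Acox2 was low in hepatectomy KO replicate 3 (9.33 CPM). Nr0b2 input was high in hepatectomy flox replicate 4 (28.8 CPM), in sham KO replicate 2 (44.0 CPM) and in hepatectomy KO replicate 4 (0.957 CPM, the only library of its group above 0). For log2 IP/input, Cyp7a1 was high in sham KO replicate 2 (7.34), Hsd3b7 was high in sham flox replicate 4 (5.20) and Nr0b2 was low in sham KO replicate 2 (-3.12). Sham KO replicate 2 thus gave the flags of both Cyp7a1 and Nr0b2. In the flagged animals the input was at or under 3 counts for Cyp7a1 and Hsd3b7 and high for Nr0b2.

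The effect of Mettl14 KO on Cyp8b1 IP differed between hepatectomised and sham-operated livers, with an interaction of -8.11 on the log2 scale (edgeR adjusted p = 0.00216). The genotype changes were -8.31 after hepatectomy and -0.21 after sham surgery.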

How the results depend on the processing

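Cyp8b1 passed the threshold in the same direction in all 17 other settings for both pairwise IP comparisons with hepatectomy KO, and in all 24 for the IP interaction. It also passed in all 12 for IP over input in hepatectomy KO and in all 16 for the IP/input change between genotypes after hepatectomy. The 2 genes called in IP for KO against flox after hepatectomy became 1 with library totals alone, without the 77-day animals, with the replicate number as a block and with only the libraries compared, 3 with DESeq2, with no filter and with a mean of at least 50 CPM, and 4 with the newer method. Leaving out single animals gave 1 to 5, the most without hepatectomy KO replicate 4. The 3 called in hepatectomy against sham within KO became 1 with library totals alone and with only the libraries compared, 2 without the 77-day animals and with the number as a block, and 1 to 4 without single animals. In hepatectomy KO, IP over input had 3 genes past the threshold with DESeq2 in place of 1. For the IP/input change of hepatectomy against sham in KO, 1 became 0 with upper-quartile factors. The IP/input interaction had 1 in place of 0 with DESeq2, with no filter and with each animal as a replicate block, and 0 to 1 without single animals. The other 14 counts did not change, and no called value changed sign. The deviations of same-numbered animals of different groups had a median correlation of -0.0783 in IP (-0.411 to 0.562) and -0.0842 in input (-0.304 to 0.257). Input and IP of the same animal had a median of only 0.0607, so this measure cannot decide whether the number is a pairing. The mean log2 IP/input of Cyp8b1 in hepatectomy KO was -4.39 with a pseudocount of 5 CPM, and that of Nr0b2 was 4.50 and 1.93 in sham flox and 5.58 and 2.25 in hepatectomy KO with 0.25 and 5 CPM. At these depths 23 of 160 input values and 4 of 160 IP values were at or under 3 counts. With a mean of at least 50 CPM only 6 of the 10 genes could be tested in input and 7 in IP.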
